A study of Rattus norvegicus with 2 samples.

Results

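The neurotrophins and GDNF are secreted proteins that keep neurons alive and tune their synapses. The 8 genes described here are 3 ligand genes, Bdnf, Ntf3 and Gdnf, and 5 receptor genes, Ntrk2, Ntrk3, Ngfr, Ret and Gfra1. They were chosen by name, as every probe outside the controls whose transcript accession belongs to one of these rat RefSeq genes, and they are 8 of 16581 genes that could be named on the array. RNA came from the solitary tract nucleus (NTS), the part of the dorsal medulla where baroreceptor, cardiac and visceral afferents end. The rats were spontaneously hypertensive rats (SHR), an inbred strain with inherited high blood pressure. The male group was 5 male SHR aged 9 weeks and the female group 5 female SHR of the same age. No drug or diet is named for either group, all rats fed freely until ether inhalation and decapitation, and no other strain was analysed here. The RNA of the 5 rats of a sex was pooled before labelling, so the 2 groups have 1 array each.

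BDNF acts through the receptor kinase TrkB, which Ntrk2 encodes, and neurotrophin-3, the product of Ntf3, acts mainly through TrkC, which Ntrk3 encodes. The p75 receptor, the product of Ngfr, binds all neurotrophins and, with sortilin, their uncleaved precursors. GDNF binds the membrane-anchored co-receptor GFRα1, the product of Gfra1, and this pair activates the receptor kinase RET. Visceral afferent neurons that end in the NTS make BDNF, and motor neurons of the brainstem carry RET and GFRα1. The RNA read here need not lie where the protein acts.

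No gene of the 8 differed by 1.5-fold between the arrays, while 2.29% of 13428 measured genes did. The receptors were close: the 5 receptor genes differed by 1.01-fold to 1.07-fold. Among the ligands, Gdnf was within 1.01-fold, Bdnf was 1.103-fold higher in the female pool, and Ntf3, the dim gene of neurotrophin-3, was 1.47-fold higher there, just under the limit. With 1 array of pooled RNA per sex there was no measure of the variation between rats, pools or labellings, so no test was made and every difference compares these 2 pools. In such bulk RNA, fewer cells of a type and less RNA per cell cannot be told apart.

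Values below are scaled signals, the background-corrected brightness of a probe set so that 100 is the 75th percentile of the array. A difference is the female minus the male value on the log2 scale. Probes bind with different strength, so a signal is set only against the same probe on the other array, and no level of a ligand is compared with that of a receptor. The 8 genes had 19 probes, of which 17 stood well above background, by the scanner program's own call, in both sexes. The other 2, a Gdnf probe and a Gfra1 probe, were not well above background on either. Each single-spot value carries the scanner program's own error of 1 SD, which for a difference ranged from 0.20 to 0.37 on the log2 scale over the 17 probes. A second yardstick is the SD of the differences over all genes of like brightness, 0.36 in the dimmest 25% of genes and 0.13 in the brightest 25%.

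Of the ligands, Bdnf had 1 probe (A_44_P437896, transcript NM_012513). Its scaled signal was 5.38 in the male and 5.94 in the female pool, a difference of 0.14 with a program error of 0.21. The difference was also below the SD of 0.20 over genes of like brightness. The raw spot was 4.88 and 5.60 times its local background in males and females, so Bdnf was read clearly above background on both. The probe's accession is 1 of several Bdnf transcripts, which share the coding exon and differ in their first exon, and which of them the probe reads was not determined here.

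Ntf3 also had 1 probe (A_44_P496447, transcript NM_031073), and it gave the largest difference of the 8 genes. Its scaled signal was 0.58 in the male and 0.85 in the female pool, 0.56 on the log2 scale. This was larger than the program error of 0.32 and than the SD of 0.36 over genes of like brightness. The spot was faint on both arrays, with a raw brightness 1.04 and 1.30 times the local background in males and females. Among the dimmest 25% of measured genes, where Ntf3 lies, 6.97% differed by 1.5-fold. The value was smaller with other background handling: with normexp correction of the raw spot it was 0.15, and with no correction 0.19. Centring on spike-in controls took it to 0.64, past 1.5-fold.

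Gdnf had 2 probes, and 1 was measured (A_44_P1102313, transcript XM_008760756). It gave 0.615 in the male and 0.611 in the female pool, a difference of -0.01 with a program error of 0.37. Like Ntf3, this gene lies in the dimmest 25%. The second probe (A_64_P004162, transcript NM_019139) read 0.086 and 0.093, not well above background on either array, so no fold is drawn from it. The accession of the faint probe is the curated Gdnf transcript and that of the measured probe a predicted one, and the 2 probes do not give the same picture of whether Gdnf was detected.

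**Figure D1:**
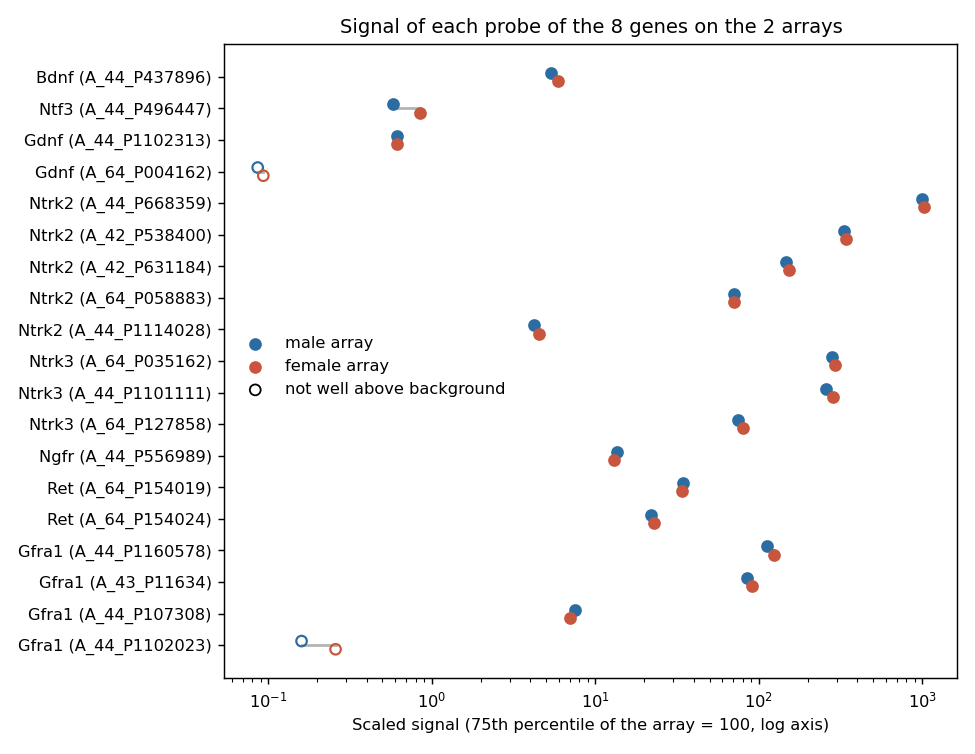
Scaled signal (log axis) of each of the 19 probes of the 8 genes, with the male array in blue and the female array in red, and open circles for a probe not well above background. The circles of a probe nearly coincide except for Ntf3 (0.58 and 0.85) and the unmeasured Gfra1 probe. Positions of different probes do not rank genes.

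Of the neurotrophin receptors, Ntrk2, the gene of TrkB, had the most data: 5 probes, 2 of them printed 10 times on each array. TrkB is made as a full-length kinase in neurons and as truncated forms that are abundant in astrocytes. The repeated probe A_44_P668359 (transcript NM_001163168) had single spots of 921 to 1068 in males, with a median of 980, and of 947 to 1082 in females, with a median of 1023. The repeated probe A_42_P538400 (transcript NM_012731) had spots of 310 to 344 with a median of 339 on the male array, and of 313 to 366 with a median of 345 on the female array. One of its 10 spots carried an outlier flag and was left out. The spots of the arrays overlapped for both probes, and 8 of 10 and 8 of 9 spots were brighter on the female array. Their mean differences were 0.04 ± 0.06 (SD over 10 spots) and 0.04 ± 0.04 (SD over 9 spots). These SDs and spot counts cover the spots of the same pair of arrays only, not repeats of the pools. Over all genes, 55.5% were higher on the female array.

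The single-spot Ntrk2 probes gave 146 and 153 (A_42_P631184), 70.96 and 70.1 (A_64_P058883), and 4.21 and 4.52 (A_44_P1114028) on the male and female arrays. The 2 probes with the accession NM_012731 differed between arrays by 0.04 and -0.02, and the 2 with NM_001163168 by 0.04 and 0.06. Neither accession stood apart from the other. Over its 5 probes Ntrk2 was 1.03-fold higher on the female array. Which receptor forms each probe reads was not determined here.

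Ntrk3, the gene of TrkC, was the receptor gene with the largest difference, 1.07-fold higher on the female array. All 3 probes were higher there, by 0.13 (A_44_P1101111), 0.06 (A_64_P035162) and 0.10 (A_64_P127858). The first had spots of 249.6 and 269 in males and of 277 and 293 in females. The second had spots of 278 and 286 in males and of 290 and 297 in females. Spots of the arrays did not overlap for these probes, with 2 spots each. How many other probes with 2 spots also failed to overlap was not counted, so nothing is read from it. The single spot of the third was 74.9 in the male and 80.03 in the female pool. The gene's difference of 0.096 was below the SD of 0.13 over genes of like brightness.

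Ngfr, the gene of the p75 receptor, had 1 probe (A_44_P556989, transcript NM_012610). It gave 13.6 in the male and 13.1 in the female pool, a difference of -0.05 with a program error of 0.20. It was one of the 2 genes with the higher value on the male array, Gdnf being the other, and in both that order turned under centring on spike-in controls. For Gdnf it also turned when dim probes were kept.

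Of the GDNF receptors, Ret had 2 probes with different accessions. A_64_P154019 (NM_012643) gave 34.5 in the male and 33.98 in the female pool. A_64_P154024 (NM_001110099) gave 22.05 and 23.01. The 2 probes differed in sign, at -0.02 and 0.06, and their mean was 0.02, so no direction can be read for Ret. Ret was higher on the female array in 11 of 13 other settings and lower after centring on the median or with its brightest probe alone.

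Gfra1 had 4 probes, 3 of them measured and all 3 with the accession NM_012959. A_44_P1160578 gave 113 in the male and 124 in the female pool, and A_43_P11634 gave 85.2 and 91.5, differences of 0.13 and 0.10. A_44_P107308 gave 7.48 and 7.00, a difference of -0.10. The dim probe thus had the opposite sign from the bright probes, although all 3 carry 1 accession. Their mean was 0.05, or 1.03-fold. The fourth probe (A_44_P1102023, transcript XM_008760512) was not well above background, at 0.16 and 0.26.

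**Figure D2:**
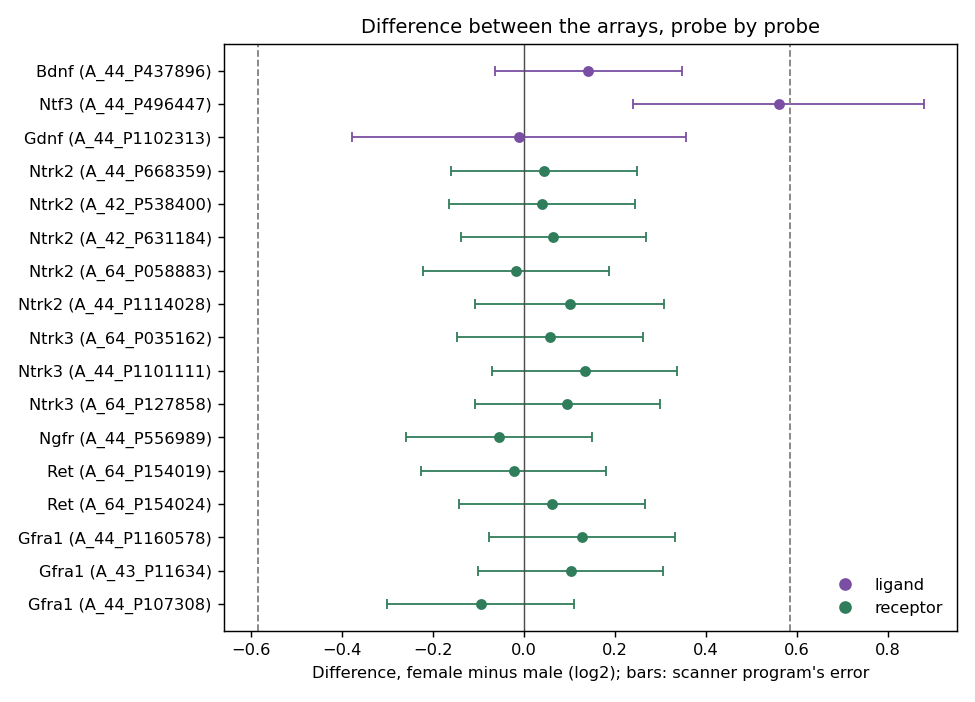
Difference between the arrays (female minus male, log2) for the 17 measured probes, ligands in purple and receptors in green. Bars are the scanner program's error of 1 SD and dashed lines mark 1.5-fold. The receptor probes lie between -0.10 and 0.13, and Ntf3 is the probe whose bar does not reach 0.

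Across the probes, 16 of 17 differed by less than the program's error, Ntf3 being the exception. Over all measured named probes 15.8% differed by more than that error. Of the 8 genes, 7 lay within 1 SD of the genes of like brightness, again with Ntf3 outside, against 15.9% of all genes outside. At a looser limit of 1.2-fold, Ntf3 was again the 1 gene of 8 past it, and 11.8% of all genes were. The counts among the probes and genes here lie near or below those shares.

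Ligands and receptors were compared by their differences. The 3 ligand genes had differences of -0.01, 0.14 and 0.56, with a median of 0.14. The 5 receptor genes lay between -0.05 and 0.10, with a median of 0.05. The ranges overlapped. The median over the 8 genes was 0.05, and that over all measured genes 0.02. By any amount, 6 of the 8 genes were higher on the female array, as were 55.5% of all genes. This count was 5 with centring on the median or the brightest probe of each gene, 7 with dim probes kept and 8 with centring on spike-in controls. Ntf3 and Gdnf are in the dimmest 25% of genes and no receptor gene is, and the SD over genes is wider there, so the wider range of the ligands goes with lower brightness. The part of brightness in it was not tested.

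**Figure D3:**
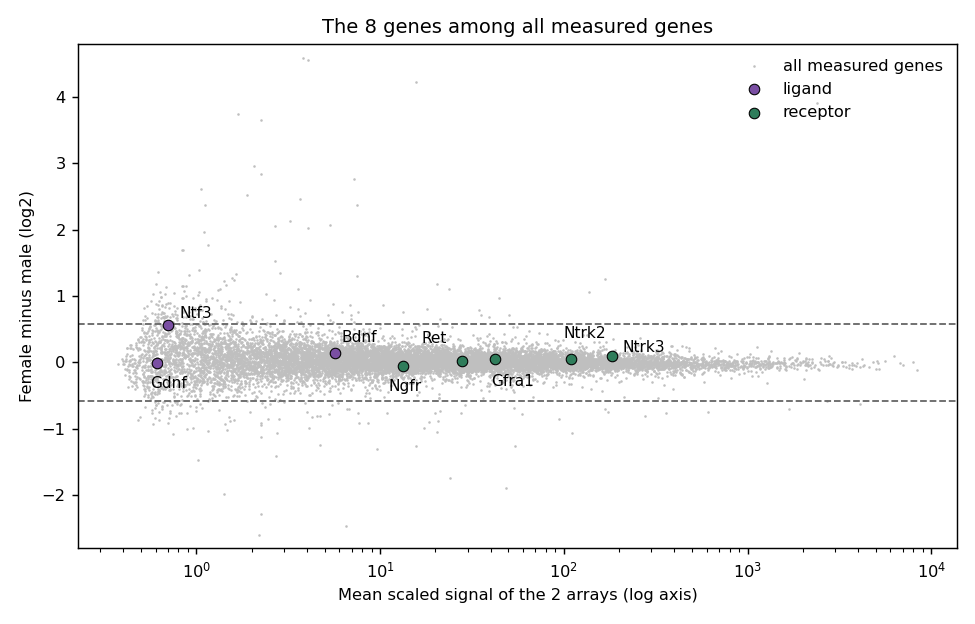
Difference (female minus male, log2) of every measured gene against its mean scaled signal (log axis), grey, with the ligands in purple and the receptors in green; dashed lines mark 1.5-fold. The cloud widens towards dim genes, where Ntf3 at 0.56 and Gdnf at -0.01 lie, and the receptors sit inside its narrow part.

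The other ligands, receptors and partners of both families were read from a fixed list of 20 genes, all of them measured. None was past 1.5-fold in either direction, where 1.5% of all genes were past it on the female side and 0.797% on the male side. The median was 0.01, and 10 of the 20 were higher on the female array. Among ligands, Ntf4, which encodes neurotrophin-4, a further TrkB ligand, gave 0.50 in the male and 0.56 in the female pool and was dim. The GDNF relatives neurturin (Nrtn), artemin (Artn) and persephin (Pspn) had differences of 0.13, -0.18 and 0.16.

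Sorcs2, a partner of p75 in precursor signalling, gave 110.9 in the male and 90.4 in the female pool, 1.23-fold with the higher value on the male array, and it rests on 1 probe. Sort1, the gene of sortilin, differed by -0.12, and its relatives Sorcs1 and Sorcs3 by 0.18 and -0.06. The p75 co-receptor gene Lingo1 differed by 0.18, the Nogo receptor gene Rtn4r by -0.02, the p75 homologue gene Nradd by -0.08 and Kidins220, a Trk scaffold gene, by 0.09.

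Of the GDNF co-receptor genes, Gfra3, the receptor of artemin, gave 0.75 in the male and 0.92 in the female pool, 1.22-fold, and was dim. Gfra2, the receptor of neurturin, differed by -0.08 and Gfra4, that of persephin, by 0.18. Gfral, the receptor of GDF15, which is known for its place in the area postrema and NTS, gave 4.41 and 5.28, a difference of 0.26. Gfra1 at 0.05 lay inside the range of its relatives. The alternative GDNF receptor gene Ncam1 was within 1.02-fold, and Sdc3, a proteoglycan gene for a GDNF-binding syndecan, was within 1.00-fold.

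Neurotrophins are made as precursors that proteases cut. Of 15 listed genes of this step 12 were measured, and none was past 1.5-fold. Furin, which encodes the main intracellular convertase, differed by 0.17. Plat, the gene of tissue plasminogen activator, gave 195 in the male and 199 in the female pool. A2m, the gene of the protease inhibitor alpha-2-macroglobulin, which also binds neurotrophins, gave 229 and 295, a difference of 0.36 that both of its probes showed, at 0.35 and 0.38. Furin was named here after its value was seen. Mmp7, Mmp9 and Plau were not well above background on both arrays.

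Downstream, 20 of 22 listed receptor adaptor genes were measured, with a median of -0.01. Gab1, which links receptors to PI3 kinase, was within 1.01-fold and the Ras activator gene Sos2 within 1.04-fold. The 9 genes of p75 adaptors had a median of -0.03, with Bex3 and Ywhae within 1.02-fold and 1.01-fold. Of 28 kinase cascade genes 27 were measured, with a median of 0.02. Mapk3, the gene of ERK1, differed by -0.07 and Map2k2, the gene of its activator MEK2, by 0.01. Brakes of Trk and Ret signalling, such as the Sprouty and Spred genes, had 10 of 14 genes measured and a median of 0.12. Their brightest genes, Ptprf and Lrig2, differed by -0.04 and 0.04, and the dim Spred2, named after its value was seen, gave 0.51 and 0.72, 1.41-fold. None of these 66 genes was past 1.5-fold. Over all lists other than the 8 genes, 98 genes were measured, none past 1.5-fold, with a median of 0.02.

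**Figure D4:**
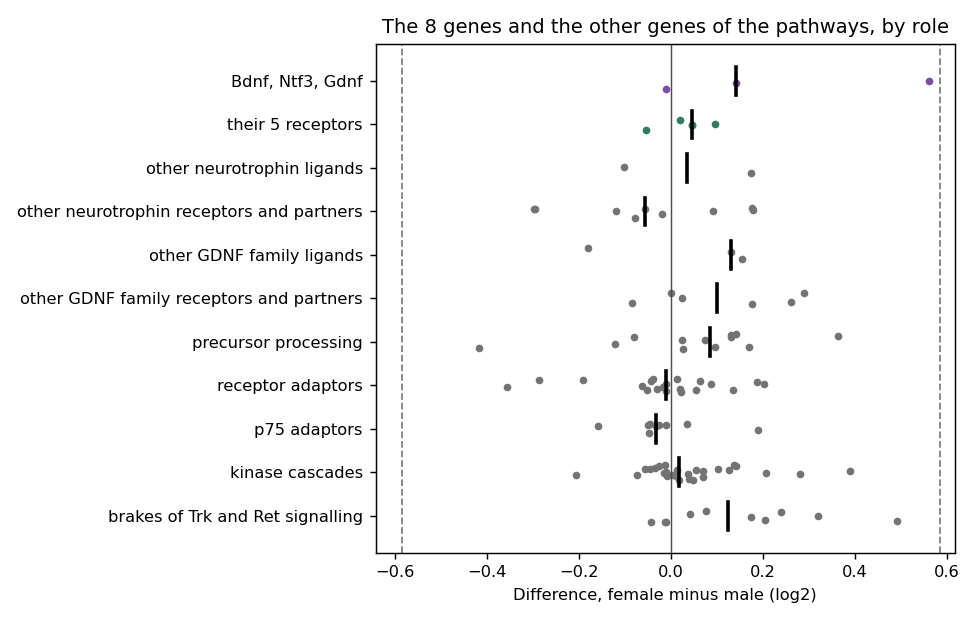
Difference (female minus male, log2) of each measured gene, 1 point per gene and a black bar for the median, by role in the pathways. Points are spread vertically for legibility, and dashed lines mark 1.5-fold, which no point passes.

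Markers of the cells that could carry these RNAs were read beside them. Of 14 listed genes of NTS and dorsal medulla neurons, 12 were named and all 12 were measured, among them Th, Dbh, Slc17a6, Hoxb4 and Hoxb5. Their median was 0.08, with none past 1.5-fold, and their sums were 1640 and 1602. Of the 12, 9 were higher on the female array, beside 55.5% of all genes. Th, Dbh and Slc6a5 were lower there, at -0.18, -0.07 and -0.02. Tlx3, a defining gene, had no named probe and could not be read. Of the 9 measured markers of vagal and hypoglossal motor neurons, cells that carry Ret and Gfra1, 8 were lower on the female array. Their median was -0.21 and their summed scaled signal 723 in the male and 616 in the female pool. Prph, also in the peripheral sensory neuron list below, made up most of both sums. The 7 genes that no other marker list holds, taken after the values were seen, summed to 258.6 and 206.7. Calca, which encodes CGRP, was past 1.5-fold, at 15.2 and 6.13. The part of these cells in the Ret and Gfra1 values was not tested. Peripheral sensory neuron markers, 7 measured, had a median of 0.06 and sums of 478 and 425. Most of those sums is Prph, at 463 and 409, which is also in the motor neuron list. The 5 genes that no other marker list holds were a subset taken after the values were seen. They summed to 13.97 and 14.87, with 4 of 5 higher on the female array. Prph and Isl2, which the subset leaves out, were lower there, at -0.18 and -0.13. Over all 7 measured markers, 4 were higher on the female array, beside 55.5% of all genes. Scn10a, defining for nociceptors, was the 1 marker of this list past 1.5-fold, 1.61-fold higher on the female array, and was dim at 0.48 and 0.78. Scn11a of the same list went the other way, 1.34-fold higher on the male array, and was also dim at 1.79 and 1.34. No direction for these cells is read from either gene. Mrgprd was not well above background on both arrays.

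Among glia, 8 astrocyte markers had a median of -0.07 and sums of 9769 and 9478, beside a Ntrk2 difference of 0.05. All 10 oligodendrocyte markers were lower on the female array, with a median of -0.23 and sums of 2336 and 1964. Of 6 measured Schwann cell markers, cells known to carry Ngfr, 5 were lower there, with a median of -0.28 and sums of 1475 and 1195, part of it from genes that oligodendrocytes share. Cdh19, a marker of the Schwann lineage, was not well above background on both arrays. Microglial markers had a median of -0.04 (8 measured, sums of 769 and 741) and endothelial and mural markers -0.12 (10 measured, sums of 207 and 178).

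Markers of choroid plexus and blood had larger median differences than any of the 8 genes. Of 15 measured choroid plexus markers, 14 were past 1.5-fold with the higher value in the female pool, with a median of 2.13 and sums of 982 and 10001 for males and females. Of 7 measured blood markers, 5 were past 1.5-fold with the higher value in the male pool; their median was -0.73 and their sums were 5405 and 3476. Of 12 markers of meninges and fibroblasts, 8 were higher on the female array, with a median of 0.12 and sums of 1049 and 1035, and Col1a2 was past 1.5-fold on the male side. Of the 8 genes 6, Ntf3 among them, had their higher value in the pool with the higher choroid plexus markers. So did A2m and 55.5% of all genes. The part of these tissues in any value of the 8 genes or of A2m was not tested.

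**Figure D5:**
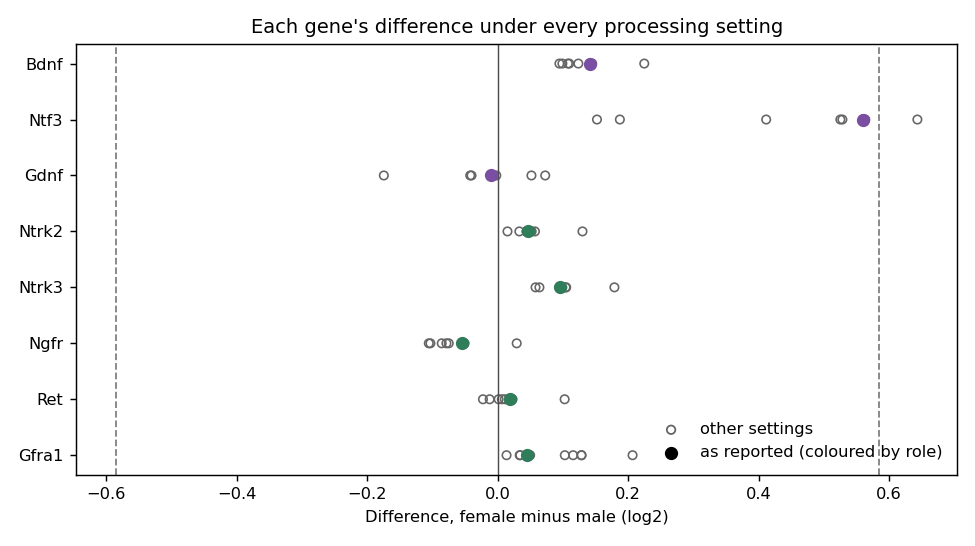
Difference (female minus male, log2) of each of the 8 genes as reported (filled, purple for ligands and green for receptors) and under the other processing settings (open circles); dashed lines mark 1.5-fold. Ntf3 spans 0.15 to 0.64, while the 5 receptors stay between -0.11 and 0.21.

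The depth of an array is its signal over background. Of 58717 spots outside the controls, 80.1% of the male and 82.3% of the female spots were well above background, and no spot was saturated. Both arrays were on 1 slide and read on 1 day. Past 1.5-fold lay 201 of the 13428 measured genes on the female side and 107 on the male side. That split was 37 to 33 with normexp correction, 137 to 157 after quantile normalization, 281 to 81 after centring on spike-in controls, 1134 to 513 with dim probes kept and 20 to 27 over the brighter 50% of probes.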

How the data were processed

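RNA of 2 pools, 1 per sex and grouped by the sex label, was hybridised in 1 colour (Cy3). Spot intensity, linear and already background-corrected as the processed signal, was deposited from Agilent Feature Extraction (version 9.1 per the submitters' processing notes, 11.5.1.1 per the file headers). The authors' deposited table equalled that intensity divided by 22.8 (male) and 23.4 (female), varying by an SD of at most 0.00046 (log2), with column medians of 19.4 and 19.6; 36 of 39 spots of the 8 genes were in it. It is linear, not centred by gene, and without direction.

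Here, log2 of the processed signal minus log2 of each array's 75th percentile was taken. Control and outlier-flagged spots were left out, spots of a probe averaged, and a gene was the mean of its probes with most spots well above background on both arrays. Accessions without versions were matched to RefSeq genes (GRCr8) for names only: 21109 of 45595 probes matched. The headers' array design is on an older assembly, so no coordinates are given. No sequence of these probes is shown.

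Members and lists were chosen with earlier results of these data known. Named were the 8 genes with every probe, the other ligands and receptors of both families, and from each further list the genes past 1.5-fold or, with none, the 2 brightest; Calca, past 2-fold, and others were added as stated. With 1 array per group no test was possible. The program error is the root sum of squares of both arrays' relative error, on the log2 scale. The reduction to genes was tested on simulated data. Alternatives were normexp (offset 50, limma 3.58.1 in R 4.3.3; on the median signal, as no mean was used), no correction, 5 scalings, the authors' table, 2 filters, flagged spots kept, 2 gene summaries and other folds. Python 3.11.15, numpy 2.4.6 and pandas 2.3.3 were used. Some genes of the lists enter the counts and medians but are not reported by name here.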

Additional observations from a re-analysis of the deposited data

How the results depend on the processing

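No paired analysis was possible because only 1 pool stands for a sex, which leaves nothing to pair or to test. Of the 8 genes, the count past 1.5-fold was 1 (Ntf3) after centring on spike-in controls, and 1 with 1.2-fold as the limit; under the 12 other scalings, filters and summaries and at 2-fold it was 0. The median over the 8 genes was 0.046 and went from 0.014 after centring on the median to 0.13 after centring on spike-in controls. Genes past 1.5-fold numbered 308, but 70 with normexp, 88 without background correction, 1647 with dim probes kept, 47 over the brighter 50% of probes, and 1583 at 1.2-fold. Genes past 2-fold numbered 74, but 27, 31, 772 and 15 in the first 4 of these settings. Pathway genes past 1.5-fold numbered 0, but 1 after quantile normalization and 3 with dim probes kept (Mmp7, Mmp9, Plau). In the 12 settings that gave them a value, Bdnf spanned 0.09 to 0.22 and Gdnf -0.17 to 0.07. In 13 settings each, Ntrk2 spanned 0.02 to 0.13, Ntrk3 0.06 to 0.18, Ngfr -0.11 to 0.03, Ret -0.02 to 0.10 and Gfra1 0.01 to 0.21. Bdnf, Ntf3, Ntrk2, Ntrk3 and Gfra1 were higher on the female array in every setting that gave them a value. All settings reprocess the same 2 arrays, and the share of all genes that kept their sign was not counted. The measured Gfra1 probes differed in sign, at -0.10, 0.10 and 0.13, so no direction is read for that gene. Bdnf, Ntf3 and Gdnf have no value over the brighter 50% of probes. Signal close to background limits Ntf3 and Gdnf.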
